A study of Sus scrofa with 6 samples.

Results

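The cohesin ring, its protectors and the protease that opens it were followed in porcine oocytes through 10 genes: the cohesin subunit genes REC8, SMC1B, SMC1A, SMC3, STAG3 and RAD21, the shugoshin genes SGO1 and SGO2, the separase gene ESPL1 and the securin gene PTTG1. They were found by their symbols among the 29861 genes of the deposited expression table, and all 10 had 1 row each. RNA was sequenced from 6 samples in 3 groups of 2, namely control oocytes, heat-stressed oocytes and oocytes given nicotinamide mononucleotide (NMN), a precursor of the coenzyme NAD, during the heat stress. All groups were cultured for 24 h per their labels, which place the oocytes at the germinal vesicle stage, whereas the study's methods describe the sequenced oocytes as metaphase II. According to these methods each group was a pool of oocytes from abattoir ovaries, cultured as immature oocytes with their cumulus cells. Neither labels nor methods say whether the 2 samples of a group came from separate collections, so the P-values measure the spread between these samples, which may be technical.

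Cohesin is a ring of 2 SMC proteins closed by a kleisin, with a STAG subunit bound to the kleisin. It holds sister chromatids together from DNA replication until anaphase. Meiotic cells use their own versions, with SMC1B for SMC1A, REC8 for RAD21 and STAG3 for STAG1 or STAG2. In mouse oocytes the ring is loaded before birth and is hardly replaced during the long arrest. At anaphase I separase cuts the kleisin along the chromosome arms, while shugoshin, which brings the phosphatase PP2A to the centromere, keeps the kleisin there uncut until anaphase II. Securin holds separase inactive until it is destroyed through the anaphase-promoting complex.

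Growing oocytes store transcripts for later use, and lengthening of the poly(A) tail during maturation is one of the known switches of their translation. The signals for it lie near the 3′ end of the transcript: a cytoplasmic polyadenylation element (CPE), searched here as TTTTAT or TTTTAAT, and the polyadenylation signal, searched as AATAAA or ATTAAA. The last 100 nt of 1 annotated RefSeq transcript per gene (Sscrofa11.1 build) were searched on the transcript's own strand, and matches of both kinds may share bases. The windows of 30 bases below, with the motif in capitals, are shown for separase and SMC3, the 2 members with a CPE match, and for both shugoshins and securin, whose levels the results turn on.
ESPL1, CPE, chr5:18509840-18509869, plus strand: atttccccagtgTTTTATgaaatgtttcct
ESPL1, polyadenylation signal, chr5:18509877-18509906, plus strand: taatcttaatatAATAAAgatataccattt
SMC3, CPE, chr14:121008895-121008924, plus strand: ttcaattaaatgattggTTTTATgactaaa
SGO1, polyadenylation signal, chr13:7137893-7137922, minus strand: tttgtaaagagcAATAAAgtttgtataaga
SGO2, polyadenylation signal, chr15:104150687-104150716, plus strand: gccttttaaccaAATAAAagcattataatt
PTTG1, polyadenylation signal, chr16:63104712-63104741, minus strand: acagtttgtattAATAAAgcaactctttaa

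The ESPL1 element ended 56 nt before the end of its transcript, and SMC3 had 3 matches, the last of which ended 7 nt before the end. The SMC3 polyadenylation signal, ATTAAA in small letters in its window above, ended 20 nt before the end, so that last match lay after it. In ESPL1 the signal ended 19 nt before the end, after the element. No CPE match was found in the windows of REC8, SMC1B, SMC1A, STAG3, RAD21, SGO1, SGO2 and PTTG1. Of all 18761 annotated mRNA transcripts searched, 15.5% held a CPE match and 64.8% a polyadenylation signal, and of the 3901 belonging to genes tested below 24.7% and 80.3%. SMC1B was the only member without a polyadenylation signal in this window. A match is a description of these letters and says nothing on whether the site is used.

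Expression is given in FPKM, the fragments of a transcript scaled to its length and to all mapped fragments of the sample, so levels can be compared between genes of different length. Separase and securin transcripts were the most abundant of the 10, the shugoshins came next, and the cohesin subunits were lowest. Over the 6 samples ESPL1 had a mean of 22.5 FPKM (rank 426 of the 29861 genes), PTTG1 16.4 FPKM (rank 604), SGO1 10.7 FPKM (rank 880) and SGO2 6.07 FPKM (rank 1443). SMC3 (3.48 FPKM) and RAD21 (3.43 FPKM) followed, then SMC1B (1.21 FPKM), SMC1A (0.448 FPKM) and STAG3 (0.168 FPKM), and REC8 was listed at 0. Each gene from ESPL1 to SMC3 overlapped the next in that order in its range, with the samples of all groups pooled. Within every single sample, however, PTTG1 was above SGO1, SGO1 above SGO2, and SGO2 above both SMC3 and RAD21. The order of ESPL1 and PTTG1 and that of SMC3 and RAD21 changed between samples. RAD21 and SMC1B, SMC1B and SMC1A, and SMC1A and STAG3 did not overlap. A mean of at least 1 FPKM over the 6 samples was required for the main test, which 4713 genes and 7 of the 10 members passed. SMC1A, STAG3 and REC8 did not, and SMC1B passed with a control mean of 0.982 FPKM, through the other groups.

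**Figure D1:**
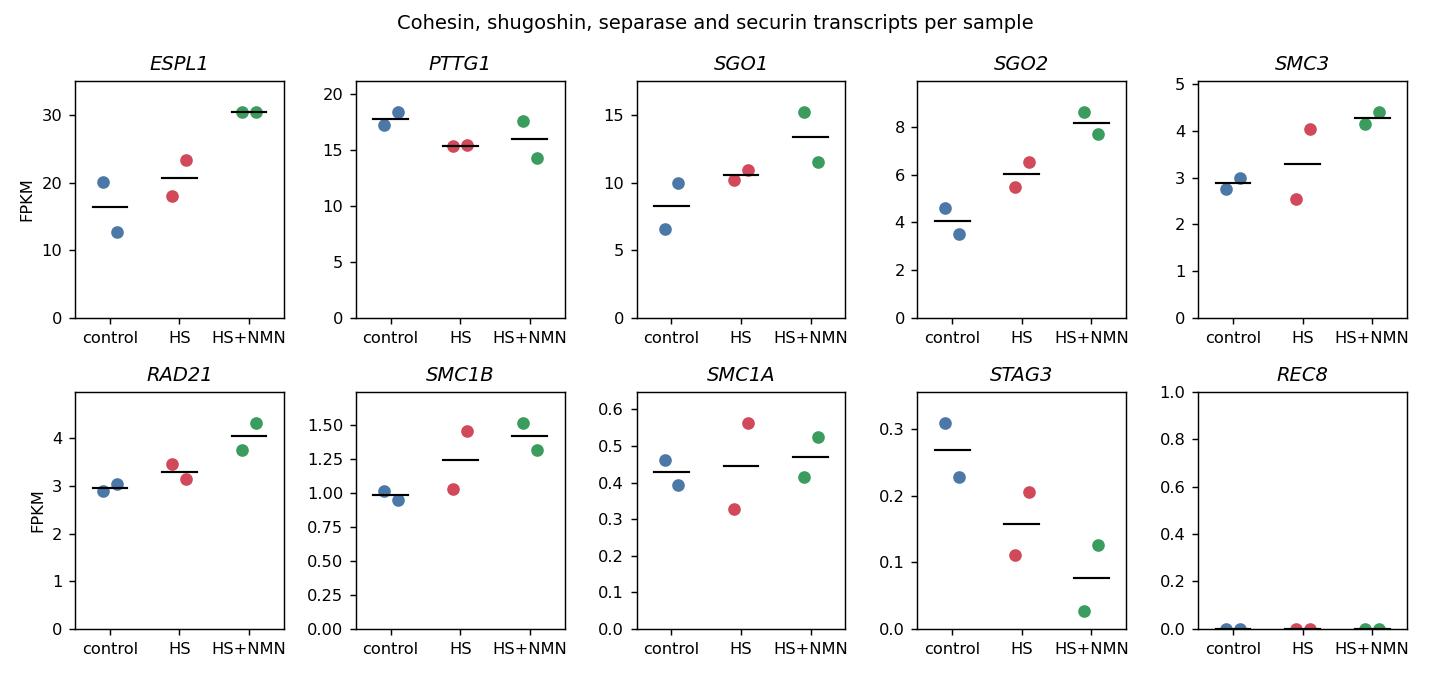
FPKM of the 10 genes in each of the 6 samples, with 1 panel per gene on its own linear axis from 0, ordered by mean level. Each point is a sample, HS stands for heat stress, and the bar is the mean of 2 samples. SGO1, SGO2 and RAD21 step up from group to group without overlap, whereas PTTG1 does not, STAG3 lies highest in control oocytes, and REC8 is at 0 in every sample.

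The sums of FPKM per sample ranged from 163929 to 290136, of which 61.7% to 74.7% came from mitochondrially encoded genes, and the read depth is unknown because the files give no counts. Of 12 oocyte markers 10 had a mean of at least 1 FPKM, and DDX4 and FIGLA did not reach it. The oocyte markers summed to 3335 to 3545 FPKM in control, 3232 to 3239 with heat stress and 2789 to 3029 with NMN added. GDF9 had 732 and 777 FPKM in control, 477 and 532 with heat stress and 435 and 353 with NMN added. ZAR1 had 17.3 and 23.8, then 11.8 and 13.8, then 4.30 and 2.84. ZP2, ZP3, ZP4, FIGLA, NLRP5 and MOS were also lower in both NMN-supplemented samples than in both control samples. DAZL, DDX4 and OOEP overlapped between these groups. BMP15 was higher, with 1606 and 1646, then 1861 and 1940, then 1820 and 1751. None of 12 cumulus or granulosa markers in the table reached 1 FPKM, their sums lay between 0.398 and 0.973 FPKM, and AMH, INHA, KRT8 and KRT18 were at 0 in all samples. The 6 blood, endothelial and stromal markers summed to 0.195 to 0.490 FPKM. What part these marker levels have in the members' values was not tested. In such pools, fewer oocytes with a transcript and less of it per oocyte cannot be told apart.

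Among the ring subunits, SMC3 (chromosome 14, 120969629 to 121008924), the SMC partner common to mitotic and meiotic rings, had 2.76 and 3.0 FPKM in control, 2.54 and 4.04 FPKM in heat-stressed and 4.14 and 4.40 FPKM in NMN-supplemented oocytes. The heat-stressed samples lay on both sides of the control samples, and the NMN-supplemented samples were above all others. The log2 fold change, on the scale of log2(FPKM + 1) used throughout, was 0.44 between NMN-supplemented and control oocytes (SE 0.19, limma, adjusted P = 0.136). It was 0.13 with heat stress (adjusted P = 0.703) and 0.32 between NMN-supplemented and heat-stressed oocytes (adjusted P = 0.438). The heat-stressed samples decide these: without heat-stressed sample 1 the values were 0.38 and 0.063, and without heat-stressed sample 2 −0.13 and 0.57, the last with an unadjusted P under 0.05.

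SMC1B, the meiotic SMC1, lies on chromosome 5 (3976098 to 4067148) in a listed locus shared with FAM118A and a further gene, so its reads may be split with them. It had 1.01 and 0.95 FPKM in control, 1.03 and 1.46 FPKM in heat-stressed and 1.52 and 1.32 FPKM in NMN-supplemented oocytes. Control oocytes were lowest, and the other groups overlapped (log2 fold change between NMN-supplemented and control 0.28, SE 0.14, adjusted P = 0.192). SMC1A, its counterpart in mitotic cells (chromosome X, 46143738 to 46202187), had 0.461 and 0.394, then 0.328 and 0.563, then 0.416 and 0.526 FPKM in the same order, and all 3 groups overlapped. SMC1B thus made up 68.8% to 78.5% of the SMC1 FPKM in each sample.

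RAD21, the mitotic kleisin (chromosome 4, 21772821 to 21802453), had 2.89 and 3.03 FPKM in control, 3.45 and 3.13 FPKM in heat-stressed and 3.76 and 4.32 FPKM in NMN-supplemented oocytes. Every heat-stressed sample was above every control sample and every NMN-supplemented sample above both. The log2 fold change was 0.35 between NMN-supplemented and control oocytes (SE 0.12, adjusted P = 0.0879), so RAD21 passed 0.05 without adjustment but not with it. The unadjusted call was lost without any one of the control or NMN-supplemented samples (log2 fold changes of 0.26 to 0.43). REC8, the meiotic kleisin that separase cuts (chromosome 7, 75118743 to 75127759), was listed at 0 in all 6 samples although no other gene shares its locus. An FPKM of 0 can be a failed estimate or a lack of transcript, and which holds for REC8 was not tested. In all, 9309 genes were at 0 in every sample. GAPDH, which all cells use, was listed at 0 in heat-stressed sample 1 and at only 0.208 to 0.315 FPKM in the other samples. RAD21L1, the third kleisin of mammals, was at 0.00339 FPKM in control sample 1 and at 0 in the others.

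STAG3, the meiotic STAG subunit (chromosome 3, 8175908 to 8211898), had 0.310 and 0.229 FPKM in control, 0.110 and 0.206 FPKM in heat-stressed and 0.0275 and 0.127 FPKM in NMN-supplemented oocytes, so control oocytes were highest and the other groups overlapped. At these levels a fit with a minimum mean of 0.1 FPKM (11651 genes) was needed, which gave a log2 fold change of −0.24 between NMN-supplemented and control oocytes (SE 0.081, adjusted P = 0.146). STAG2, an alternative STAG subunit of mitotic rings, had 0.315 and 0.345 FPKM in control, 0.508 and 0.632 FPKM in heat-stressed and 0.706 and 0.743 FPKM in NMN-supplemented oocytes, without overlap between groups (log2 fold change between NMN-supplemented and control 0.37, SE 0.086, adjusted P = 0.0780). STAG1 ranged from 0.0777 to 0.143 FPKM. Neither STAG3 nor STAG2 passed the adjusted threshold, and with the pseudocount of 1 FPKM fold changes at such levels are understated.

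The shugoshins gave the one change among the members that passed the adjusted threshold. SGO2, the shugoshin needed to protect centromeric cohesin in mouse oocytes (chromosome 15, 104099378 to 104150723), had 4.62 and 3.50 FPKM in control, 5.47 and 6.53 FPKM in heat-stressed and 8.61 and 7.70 FPKM in NMN-supplemented oocytes. The groups followed each other without overlap. Between NMN-supplemented and control oocytes SGO2 rose by a factor of 2.01 in mean FPKM, from 4.06 ± 0.794 to 8.16 ± 0.647 FPKM (SD, n = 2 each; log2 fold change 0.86, SE 0.16, limma, adjusted P = 0.0272). Its difference between heat-stressed and control oocytes (log2 fold change 0.47, SE 0.16, adjusted P = 0.184) had an unadjusted P under 0.05, and that between NMN-supplemented and heat-stressed oocytes (log2 fold change 0.39, SE 0.16, adjusted P = 0.366) did not. The adjusted P of the rise was 0.109 without control sample 2, 0.132 without NMN-supplemented sample 1 and 0.101 without NMN-supplemented sample 2, and in those fits 0, 1 and 1 genes of all those tested had an adjusted P under 0.05. The unadjusted heat stress call of SGO2 was lost without control sample 2 (log2 fold change 0.31) and without heat-stressed sample 2 (0.36).

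SGO1, the shugoshin of mitotic centromeres (chromosome 13, 7137891 to 7153202), had 6.55 and 9.98 FPKM in control, 10.2 and 10.9 FPKM in heat-stressed and 15.2 and 11.5 FPKM in NMN-supplemented oocytes. The groups again did not overlap, but its samples lay further apart within the control and NMN-supplemented groups than those of SGO2. The log2 fold change between NMN-supplemented and control oocytes was 0.65 (SE 0.22, adjusted P = 0.0862), past 0.05 without adjustment but not with it. It was 0.35 with heat stress (adjusted P = 0.389) and 0.30 between NMN-supplemented and heat-stressed oocytes (adjusted P = 0.509). Without control sample 1 the values against control were 0.075 with heat stress and 0.38 with NMN, and without control sample 2 they were 0.62 and 0.92, both with an unadjusted P under 0.05. Without control sample 1, and without NMN-supplemented sample 1 (0.46), the value between NMN-supplemented and control oocytes was no longer past 0.05.

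Separase and securin, the enzyme and its inhibitor, differed in their values. ESPL1 (chromosome 5, 18486969 to 18509913) had 20.1 and 12.7 FPKM in control, 18.0 and 23.4 FPKM in heat-stressed and 30.4 FPKM in both NMN-supplemented samples. Control and heat-stressed oocytes overlapped, and the NMN-supplemented samples were above all others. The log2 fold change between NMN-supplemented and control oocytes was 0.89 (SE 0.24, adjusted P = 0.0516), just outside the threshold. With heat stress the ESPL1 value was 0.34 (SE 0.24, adjusted P = 0.425), and NMN-supplemented oocytes differed from heat-stressed ones by 0.55 (SE 0.24, adjusted P = 0.379). The heat stress value was 0.65 without control sample 1, with an unadjusted P under 0.05, and 0.025 without control sample 2. PTTG1 (chromosome 16, 63104698 to 63112382) had 17.2 and 18.4 FPKM in control, 15.3 and 15.4 FPKM in heat-stressed and 17.6 and 14.3 FPKM in NMN-supplemented oocytes. Heat-stressed oocytes were below control oocytes, and the NMN-supplemented samples spanned the heat-stressed ones. None of its comparisons had a P under 0.05 (log2 fold changes of −0.20 with heat stress, 0.04 between NMN-supplemented and heat-stressed and −0.16 between NMN-supplemented and control oocytes, SE 0.13 each).

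The members were read against all tested genes, and the 3 comparisons share samples, so they are not independent. With heat stress, 1 of the 7 members (SGO2, higher) had an unadjusted P under 0.05, where 22.8% of all tested genes did, 12.7% higher and 10.1% lower than in control oocytes. When NMN-supplemented oocytes were set against heat-stressed ones, 0 of 7 members did, where 13.6% of all tested genes did, 7.15% higher and 6.45% lower. At an adjusted P under 0.05 limma called 0 genes (0%) in either comparison, while 1074 and 641 genes had an unadjusted P under 0.05, and without the variance trend 1 gene was called in each. Scaled to the same non-mitochondrial FPKM sum, 84 and 38 genes passed the adjustment, none of them a member. Between NMN-supplemented and control oocytes, 4 of the 7 members (ESPL1, RAD21, SGO1 and SGO2) were higher at an unadjusted P under 0.05, where 41.3% of all tested genes were called, 25.6% higher and 15.7% lower. With adjustment SGO2 alone of the 7 rose, where 21.5% of all tested genes were called, 12.4% higher and 9.17% lower. With 7 genes nothing is read from these shares: ESPL1 and SGO2, 2 members, were called with heat stress when control sample 1 was left out, and the same 2 between NMN-supplemented and heat-stressed oocytes when either control sample was left out.

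Because SMC1B passed the filter through the groups in which it was higher, the tested members are summarised without it, as a description. The median log2 fold change of the other 6 was 0.23 with heat stress, 0.31 between NMN-supplemented and heat-stressed and 0.54 between NMN-supplemented and control oocytes, where all tested genes had medians of 0.049, 0.078 and 0.11. The 1672 genes with a mean of at least 5 FPKM had medians of 0.082, 0.12 and 0.19. Higher values without overlap were found for 3, 5 and 5 of these 6 members, where 31.6%, 35.9% and 43.5% of all tested genes had them. Lower values without overlap were found for PTTG1 with heat stress and for 0 members in the other comparisons, against 23.2%, 17.6% and 26.4% of all tested genes. RAD21, SGO1 and SGO2 were the members whose samples stood in ascending order from control through heat stress to heat stress with NMN without overlap, a pattern of 15.7% of all tested genes. With 6 genes nothing is read from these medians and counts, from which trends with GC content and transcript length were not removed. Scaling each sample to the same FPKM sum over genes outside the mitochondrial genome moved the median of all tested genes to −0.22 with heat stress, 0.35 between NMN-supplemented and heat-stressed and 0.13 between NMN-supplemented and control oocytes. Under that scaling the heat stress values of SMC3 (−0.12), RAD21 (−0.15) and ESPL1 (−0.0062) turned negative, though each stayed above that median. The adjusted P of SGO2 between NMN-supplemented and control oocytes was 0.208. The fit takes its spread from all 3 groups, so the heat-stressed samples also enter that P-value, and their part in it was not tested. Heat-stressed sample 1 is lowered most by it, with the largest FPKM sum (290136), of which 62.4% was mitochondrial. Control sample 2, with a mitochondrial share of 61.7%, had a sum of 163929. Scaled to the same median FPKM instead, all tested genes had medians of 0.065, 0.057 and 0.107 in the same order of comparisons. Whether the shifts under non-mitochondrial scaling rest on heat-stressed sample 1 was not tested.

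**Figure D2:**
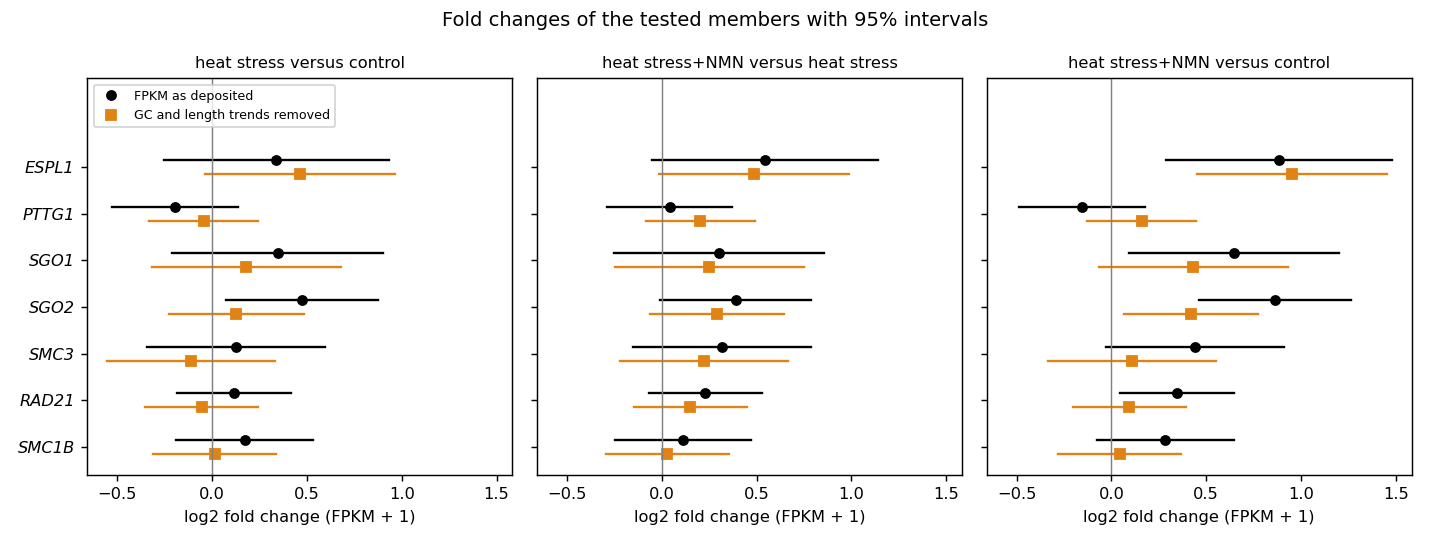
Log2 fold changes of the 7 tested members in the 3 comparisons with 95% confidence intervals of the limma fit, from the FPKM as deposited (black circles) and after trends with GC content and transcript length were removed (orange squares). In the right panel, SGO2 moves from 0.86 to 0.42 and SMC3 from 0.44 to 0.11, whereas ESPL1 goes from 0.89 to 0.95.

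Base composition moved with the fold changes across genes. Over 4454 tested genes with a transcript model, the Spearman correlation of the log2 fold change with GC content was −0.50 with heat stress, −0.13 between NMN-supplemented and heat-stressed and −0.44 between NMN-supplemented and control oocytes, and with transcript length it was 0.34, 0.28 and 0.42; these are across genes, which share the samples. SGO2 has a GC content of 35.9% and a length of 4693 nt, SMC3 39.3% and 4140 nt, SGO1 40.3% and 2943 nt, and RAD21 41.8% and 3687 nt, where the tested genes have medians of 47.6% and 3034 nt. ESPL1 is GC-rich at 59.0% and long at 6730 nt, and PTTG1 is short at 812 nt with 48.2%.

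With both trends removed, the fold changes between NMN-supplemented and control oocytes were 0.42 for SGO2 (adjusted P = 0.103), 0.43 for SGO1 (adjusted P = 0.187), 0.10 for RAD21 (adjusted P = 0.606) and 0.11 for SMC3 (adjusted P = 0.703). SGO2, SGO1 and RAD21 were no longer past their thresholds, SGO2 at the adjusted and the others at the unadjusted one. ESPL1 gained a call, with 0.95 (SE 0.20, adjusted P = 0.0415). In the heat stress comparison SGO2 went from 0.47 to 0.13 (adjusted P = 0.684), and ESPL1 from 0.34 to 0.47 (adjusted P = 0.336).

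Ratios between partners within a sample do not depend on how the sample was scaled. Trends with GC content and transcript length were not removed from them, and what part these have in the ratios was not tested. ESPL1 has 59.0% GC and 6730 nt, and PTTG1 48.2% and 812 nt. STAG3 has 54.3% GC and 4500 nt, STAG1 41.8% and 7045 nt, and STAG2 36.3% and 6973 nt. ESPL1 to PTTG1, separase over its inhibitor, was 1.17 and 0.690 in control, 1.17 and 1.51 with heat stress and 1.73 and 2.13 with NMN added, so the 3 groups did not overlap, the nearest control and heat-stressed samples being 1.171 and 1.174. STAG3 over the sum of STAG1 and STAG2 was 0.789 and 0.507 in control, 0.179 and 0.279 with heat stress and 0.0325 and 0.143 with NMN added, and it too did not overlap between groups. STAG3 was 33.7% and 44.1% of the STAG FPKM in control and 3.15% and 12.5% in NMN-supplemented oocytes, while the STAG sum went from 0.680 and 0.703 to 0.872 and 1.01 FPKM. These shares rest on low values at an unknown depth, with STAG3 at 0.0275 and 0.127 FPKM in the NMN-supplemented samples.

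SMC1B to SMC1A was 2.2 and 2.41 in control, 3.14 and 2.58 with heat stress and 3.64 and 2.5 with NMN added, where the last 2 groups overlapped. SGO2 to SGO1 overlapped in every comparison, with 0.706 and 0.350 in control, 0.535 and 0.599 with heat stress and 0.566 and 0.668 with NMN added. With 2 samples against 2, the two-sided exact permutation test cannot give a P below 0.333, and over the 12 ratio comparisons the adjusted P was 0.5 or more. REC8 to RAD21 gives no ratio because REC8 is listed at 0.

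**Figure D3:**
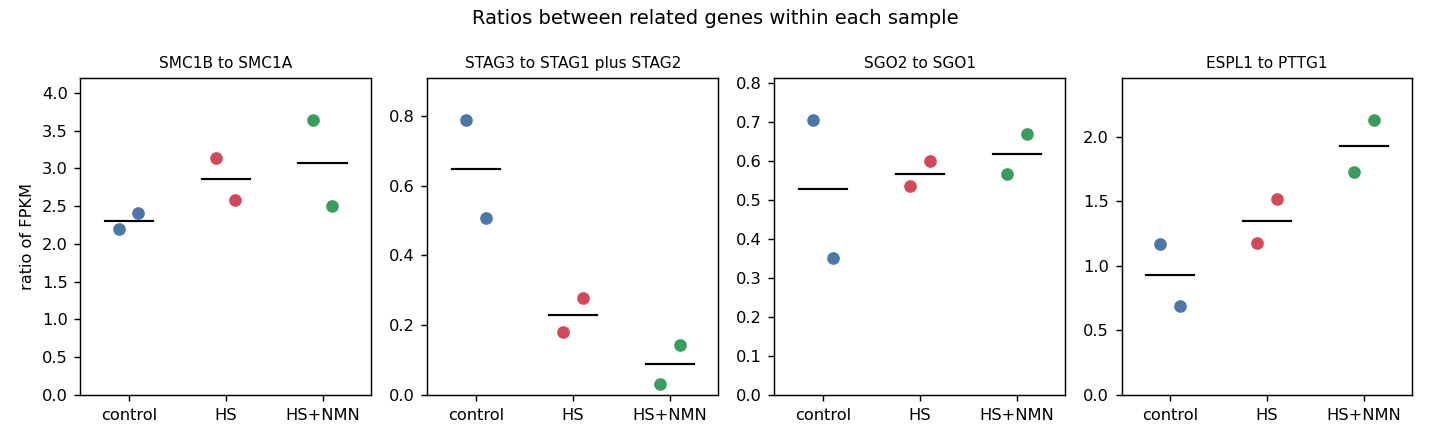
Ratios of FPKM between 4 pairs of related genes in each sample, on linear axes from 0. Each point is a sample, HS stands for heat stress, and the bar is the mean of 2 samples. STAG3 to STAG1 plus STAG2 goes down and ESPL1 to PTTG1 up from group to group, whereas SGO2 to SGO1 overlaps. STAG3 is at 0.310 FPKM or less in every sample.

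The wider cohesin cycle was described through 7 lists of 63 genes in the table, of which 30 passed the filter. Between NMN-supplemented and control oocytes, 12 of the 30 were higher and 2 lower at an unadjusted P under 0.05, where 25.6% and 15.7% of all tested genes were. At an adjusted P under 0.05 4 rose and 2 fell, where 12.4% and 9.17% of all tested genes did. Their median log2 fold change was 0.26, beside 0.11 for all tested genes. With heat stress 4 were higher and 2 lower, and between NMN-supplemented and heat-stressed oocytes 5 were higher and 1 lower, at unadjusted P-values, where 22.8% and 13.6% of all tested genes were called, and none passed the adjustment. With 30 genes nothing is read from these counts. Genes under the filter are left out of them. With a minimum mean of 0.1 FPKM, NMN-supplemented oocytes were below control for the condensin gene NCAPH (log2 fold change −0.63), CSNK1D (−0.66), FZR1 (−0.35) and PPP2R5D (−0.37). They were above control for ESCO1 (0.43), SMC5 (0.31) and STAG2 (0.37). Each had an unadjusted P under 0.05 (limma), and none passed the adjustment. The same held with heat stress for NCAPH (−0.54), CSNK1D (−0.46) and SYCE2 (−0.34), below control, and for ESCO1 (0.30) and STAG2 (0.24), above control. The genes below are those with an unadjusted P under 0.05 in a comparison of the main fit. CDCA5, TEX12, PPP2CB and NSMCE4A, which had none, and SYCE2, which was under the filter, were added after their values were seen.

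Cohesin loading and release held 4 tested genes of 9. ESCO2, the acetyltransferase that locks cohesin on replicated DNA, was the most abundant, with 48.6 and 41.2 FPKM in control, 61.5 and 66.2 FPKM in heat-stressed and 89.5 and 79.4 FPKM in NMN-supplemented oocytes. It rose between NMN-supplemented and control oocytes (log2 fold change 0.90, SE 0.13, adjusted P = 0.0210), and its transcript held 3 CPE matches. PDS5A, which binds the ring and works with WAPL, rose from 1.09 ± 0.0703 to 1.97 ± 0.0827 FPKM (SD, n = 2 each; log2 fold change 0.51, adjusted P = 0.0391). WAPL, which opens the ring without cutting it, went from 2.51 ± 0.708 to 4.32 ± 0.332 FPKM (adjusted P = 0.0639). CDCA5, known as sororin, a counterpart of WAPL, differed by 0.05 on the log2 scale. With GC and length trends removed, ESCO2 had a log2 fold change of 0.51 (adjusted P = 0.0447), PDS5A 0.13 (adjusted P = 0.461) and WAPL 0.25 (adjusted P = 0.281).

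Of 14 genes of centromeric protection 8 were tested. GSG2, the kinase haspin that marks histone H3 at centromeres, fell between NMN-supplemented and control oocytes, with 5.97 and 7.22 FPKM in control, 5.35 and 5.29 FPKM in heat-stressed and 1.95 and 2.79 FPKM in NMN-supplemented oocytes (log2 fold change −1.18, SE 0.16, adjusted P = 0.0210). Its locus is shared with ITGAE, so their reads may be split. The PP2A scaffold genes PPP2R1B (17.6 ± 0.293 against 21.6 ± 0.963 FPKM, adjusted P = 0.0993) and PPP2R1A (2.16 ± 0.161 against 2.67 ± 0.255 FPKM) lay closer together between these groups (SD, n = 2 each). PPP2R1A was higher in NMN-supplemented than in heat-stressed oocytes at an unadjusted P under 0.05 (log2 fold change 0.35, adjusted P = 0.355). With GC and length trends removed, the PPP2R1B value between NMN-supplemented and control oocytes turned to −0.036. In that comparison PPP2R1A went from 0.21 to 0.54 (adjusted P = 0.0567). PPP2CB, of the same list, went from 0.23 to 0.30 (adjusted P = 0.139), and both were then past 0.05 without adjustment.

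Of the kinases that phosphorylate the kleisin, 4 of 6 genes were tested. PLK1, which drives removal of cohesin from chromosome arms in mitosis, had 7.15 and 6.68 FPKM in control, 3.38 and 3.30 FPKM in heat-stressed and 3.92 and 3.64 FPKM in NMN-supplemented oocytes. Both heat-treated groups were near one another and below control oocytes. PLK1 fell between NMN-supplemented and control oocytes (log2 fold change −0.73, SE 0.11, adjusted P = 0.0210), and between heat-stressed and control oocytes its log2 fold change was −0.87 (adjusted P = 0.111), past 0.05 without adjustment in all 16 alternatives that could be fitted. CDC7, the DBF4-dependent kinase, rose from 5.37 ± 0.476 to 9.30 ± 0.258 FPKM between control and NMN-supplemented oocytes (SD, n = 2 each; log2 fold change 0.69, adjusted P = 0.0237). With GC and length trends removed CDC7 was at 0.40 (adjusted P = 0.0567), past the threshold no longer, and PLK1 at −0.58 (adjusted P = 0.0336). PLK1 and CDC7 each share their listed locus with another gene.

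Separase and securin control held 8 tested genes of 9, and none passed the adjusted threshold. CDC20, the activator through which the anaphase-promoting complex destroys securin, had 7.74 and 8.34 FPKM in control, 5.24 and 6.06 FPKM in heat-stressed and 9.90 and 7.13 FPKM in NMN-supplemented oocytes. It was lower with heat stress (log2 fold change −0.45, adjusted P = 0.215) and higher in NMN-supplemented than in heat-stressed oocytes (0.50, adjusted P = 0.350), both at unadjusted P-values under 0.05. The first was lost with GC and length trends removed (−0.16) and without any one control or heat-stressed sample, and the second without heat-stressed sample 1 or NMN-supplemented sample 1. USP44 (log2 fold change 0.41, adjusted P = 0.0839), CCNB1 (0.37, adjusted P = 0.0845) and FBXO5 (0.35, adjusted P = 0.0967), a deubiquitinase, the cyclin B1 gene and the gene of an inhibitor of the anaphase-promoting complex, were higher in NMN-supplemented than in control oocytes at unadjusted P-values under 0.05. With GC and length trends removed USP44 was at −0.0053, FBXO5 at 0.23 and CCNB1 at 0.31, of which CCNB1 alone kept its unadjusted call against control oocytes. CDC20 gained such a call between NMN-supplemented and control oocytes, going from 0.06 to 0.45 (adjusted P = 0.133).

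Condensin and SMC5/6, the sister complexes of cohesin, held 5 tested genes of 14. SMC2, a condensin subunit, rose from 2.16 ± 0.331 to 3.94 ± 0.0345 FPKM between control and NMN-supplemented oocytes (SD, n = 2 each; log2 fold change 0.65, adjusted P = 0.0280). SMC4 (log2 fold change 0.63, adjusted P = 0.0624), NCAPG (0.41, adjusted P = 0.0702) and NSMCE3 (0.63, adjusted P = 0.0927) were higher at unadjusted P-values under 0.05, and all 4 share their listed loci with other genes. With GC and length trends removed the values were 0.21 for SMC2 (adjusted P = 0.239), 0.19 for SMC4, 0.13 for NCAPG and 0.33 for NSMCE3, and none of these had an unadjusted P under 0.05. NSMCE4A, whose locus is also shared, went from 0.23 to 0.47 (adjusted P = 0.0738), past 0.05 without adjustment. Of 8 genes of the synaptonemal complex and meiotic axis, which act in the fetal ovary, only TEX12 was tested, and it ranged from 0.557 to 2.24 FPKM with all groups overlapping. SYCE2, under the filter, had 0.324 and 0.424 FPKM in control, 0.113 and 0.0551 with heat stress and 0.295 and 0.336 with NMN added. With a minimum mean of 0.1 FPKM its value between NMN-supplemented and heat-stressed oocytes was 0.28 (adjusted P = 0.429), past 0.05 without adjustment. The calls of ESCO2, PDS5A, GSG2, PLK1, CDC7 and SMC2 at the adjusted threshold were each lost without control sample 2 and without either NMN-supplemented sample, fits in which at most 1 of all tested genes was called. That of PDS5A was also lost without the other samples, and that of PLK1 without control sample 1 (adjusted P = 0.0525). Scaled to the same non-mitochondrial FPKM sum, GSG2 alone of them passed the adjustment (adjusted P = 0.0439). The spread of that fit also comes from the heat-stressed samples.

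**Figure D4:**
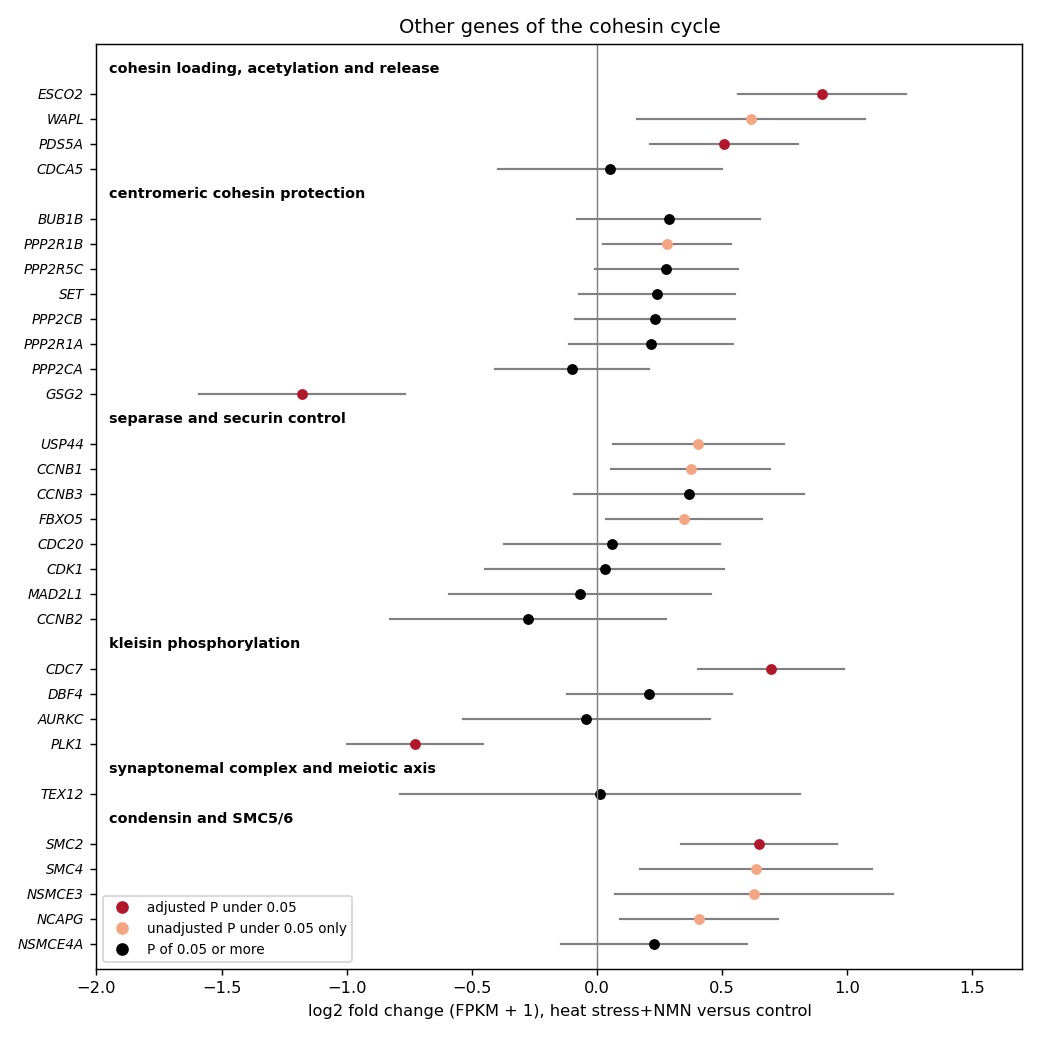
Log2 fold changes with 95% confidence intervals of the 30 tested genes of the wider lists between NMN-supplemented and control oocytes, grouped by role. Red marks an adjusted P under 0.05, orange an unadjusted P under 0.05 only and black neither. ESCO2, PDS5A, CDC7 and SMC2 lie to the right of 0, and GSG2 and PLK1 to the left.

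ESPL1 was the member with the highest mean, and on the log2(FPKM + 1) scale its value between NMN-supplemented and control oocytes (0.89, against 0.86 for SGO2) was the largest of any tested member and comparison. SGO2 had the larger ratio of mean FPKM (2.01 against 1.85), and without control sample 2 also the larger log2 value (0.70 against 0.57). The tested genes whose log2 values followed ESPL1 most closely over the 6 samples were ZNF597 (Pearson r = 0.998), OTUD3 (r = 0.997) and RAP2A (r = 0.997). They are 3 of 174 genes with an r above 0.95, and how often 6 points in 3 groups give such a value was not tested. OTUD3, for instance, had 6.22 and 3.83 FPKM in control, 5.90 and 7.31 FPKM in heat-stressed and 9.49 and 9.77 FPKM in NMN-supplemented oocytes. It was low in control sample 2 and high in both NMN-supplemented samples, as was ESPL1.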

How the data were processed

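RNA of 6 porcine oocyte samples in 3 groups of 2 was sequenced by the authors from purified mRNA. Per the methods, reads were trimmed with cutadapt and aligned to the pig genome with tophat2, and the submitters' processing notes name Cufflinks 2.2.1, Cuffnorm and Cuffdiff. The authors deposited FPKM values per gene and sample, without counts, so the depth is unknown and no counting interval is given. Steps of whole reads were looked for in the low FPKM values and were not found. A further 19 columns hold the authors' own comparisons (group FPKM, fold changes, P-values and q-values) and were not used.

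Groups were taken from the labels. FPKM were transformed as log2(FPKM + 1), genes with a mean of at least 1 FPKM over the 6 samples were kept, and 1 model of 3 groups was fitted with limma 3.58.1 in R 4.3.3 with a variance trend. P-values are two-sided and adjusted by the Benjamini-Hochberg method over 4713 genes, and "rose" or "fell" between groups means an adjusted P under 0.05. Neither labels nor methods pair the samples by number. Ratios were compared with exact permutation tests. The members and lists were chosen with earlier results of these data known. All members were named, as were genes of the wider lists with an unadjusted P under 0.05 in a comparison (up to 8 per list), STAG1 and STAG2, and the 3 genes most correlated with the member of highest mean and of largest fold change. Sororin, RAD21L1, GAPDH, TEX12, NCAPH, CSNK1D, FZR1, PPP2R5D, ESCO1, SMC5, PPP2CB, NSMCE4A and SYCE2 were named after their values were seen. GC and length trends (splines with 4 degrees of freedom) were removed in an alternative added after the data were seen. The fit was tested on simulated data. Positions, lengths and 3′ ends come from the RefSeq annotation of Sscrofa11.1, the build of the files. Figures and tables were made with Python 3.11.15, pandas 2.3.3 and matplotlib 3.10.9.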

Additional observations from a re-analysis of the deposited data

How the results depend on the processing

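The alternatives were 0.1 FPKM added before the logarithm, a filter at a mean of 0.1 or 5 FPKM or none, quantile, median and non-mitochondrial scaling, a replicate block, no variance trend, the compared groups alone, GC and length trends removed (added after the data were seen) and each sample left out, where a lone sample is assumed to vary like the others. The cause of a change was not tested. Members with an unadjusted P under 0.05 numbered 0, 1 and 2 with non-mitochondrial scaling for heat stress, NMN against heat stress and NMN against control, 0 (heat stress) and 2 (NMN against control) without GC and length trends, and 2 (NMN against heat stress) with only the compared groups. Leaving out samples gave 0 to 2, 0 to 2 and 2 to 5 members, with 0 for heat stress without heat-stressed sample 2 and 2 for NMN against control without control sample 1 or NMN-supplemented sample 1. The wider lists gave 11 and 22 genes (heat stress, NMN against control) at a minimum of 0.1 FPKM, 14 and 23 without a filter, 7 in NMN against control at 5 FPKM, 1, 1 and 2 with non-mitochondrial scaling, 2 and 9 (heat stress, NMN against control) without GC and length trends, and 2 to 6, 1 to 7 and 7 to 13 with a sample left out.

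Reversed signs were those of SMC3 with heat stress (−0.12 with non-mitochondrial scaling, −0.11 without GC and length trends, −0.13 without heat-stressed sample 2, against 0.38 without the other), RAD21 with heat stress (−0.15 and −0.055 in the first 2 of these), ESPL1 with heat stress (−0.0062 with non-mitochondrial scaling), SMC1B in NMN against heat stress (−0.025 without heat-stressed sample 1, 0.25 without the other), PTTG1 in NMN against heat stress (−0.046 with quantile normalization, −0.099 without NMN-supplemented sample 1, 0.18 without the other), and, without GC and length trends, PTTG1 (0.16), PPP2R1B (−0.036) and USP44 (−0.0053) in NMN against control. With a sample left out, the log2 ratio of SMC1B to SMC1A in NMN against heat stress ran from −0.19 to 0.36 (−0.054 without heat-stressed sample 2), and that of SGO2 to SGO1 from −0.32 to 0.69 with heat stress, −5.16e-05 to 0.24 in NMN against heat stress and −0.20 to 0.81 in NMN against control.

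The adjusted P of SGO2 in NMN against control was 0.0171 to 0.208 over 17 alternatives and under 0.05 in 9. Its log2 fold change was positive in each. Across all tested genes in that comparison, adjusted calls fell from 1015 to 86 at a minimum of 0.1 FPKM, 281 with non-mitochondrial scaling, 526 without GC and length trends, 373 without control sample 1, and 0 without a filter. Same-numbered samples did not deviate together (correlations of −0.032, 0.008 and −0.014), and with the replicate number as a block the members gave 1, 0 and 4 unadjusted calls, the wider lists 6, 5 and 12, and all genes 445 adjusted calls in NMN against control, with SGO2 at an adjusted P of 0.0502.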
